A study of Mus musculus with 2 samples.

Results

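The 34 genes described here are type I interferon response genes, which cells transcribe after interferon alpha or beta binds its receptor. They were chosen by name, and all 34 were present in both deposited count tables, out of 24417 genes in either table. They were followed across cell types in lungs of C57BL/6 mice, WT or CCR2-/-, a genotype without the chemokine receptor that monocytes use to leave the bone marrow. All mice of both genotypes had received silica, a mineral dust that scars the lung, by the trachea (400 mg/kg), and the lungs were collected at 3, 7 and 21 days. There was no group without silica, and the labels give no age. Each genotype was 1 library of single cells, prepared with Liberase digestion and collected from the middle layer of a Percoll gradient.

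Type I interferon signals through the receptor chains IFNAR1 and IFNAR2 and the kinases JAK1 and TYK2 to a complex that holds STAT2 and IRF9. This complex binds a DNA element called the interferon-stimulated response element (ISRE) and turns on genes that sense viral RNA, block its translation, degrade it or hold virus particles at membranes, and IRF7 then feeds forward to more interferon. Interferon is made after nucleic acid is sensed inside cells, which can be the RNA of a virus or DNA from damaged cells, and the response is well known in epithelium, macrophages and neutrophils of the lung.

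Several of the genes that carried the results have copies of the ISRE core just before their transcription start. The stretches below are from RefSeq (GRCm38.p6), are written 5′ to 3′ on the strand of the gene and are shown because these 5 genes stand for different arms of the response. Capitals mark matches to the ISRE core as searched here, TTTC, any 2 bases and TTTC again, or on the other strand GAAA, any 2 bases and GAAA, with overlapping matches counted. The Isg15 stretch is chr4:156200819-156200918 (minus strand, bases 100 to 1 before the start), that of Oas1a chr5:120907526-120907625 (minus, 100 to 1) and that of Bst2 chr8:71537523-71537622 (minus, 150 to 51). The Rsad2 stretch is chr12:26456493-26456592 (minus, 140 to 41) and that of Ifit3 chr19:34583349-34583448 (plus, 180 to 81). In the RefSeq gene annotation of this build the Isg15, Bst2 and Rsad2 stretches lie upstream of the gene, the Ifit3 stretch lies inside the annotated gene span, and that of Oas1a lies in part inside it.
Isg15: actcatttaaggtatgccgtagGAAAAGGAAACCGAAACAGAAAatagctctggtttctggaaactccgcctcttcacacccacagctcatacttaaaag
Oas1a: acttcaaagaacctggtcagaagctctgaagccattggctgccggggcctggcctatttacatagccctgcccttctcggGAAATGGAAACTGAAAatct
Bst2: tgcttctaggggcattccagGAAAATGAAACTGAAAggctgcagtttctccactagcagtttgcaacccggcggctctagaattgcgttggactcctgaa
Rsad2: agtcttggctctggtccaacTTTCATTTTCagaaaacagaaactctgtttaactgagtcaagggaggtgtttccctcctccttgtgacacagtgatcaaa
Ifit3: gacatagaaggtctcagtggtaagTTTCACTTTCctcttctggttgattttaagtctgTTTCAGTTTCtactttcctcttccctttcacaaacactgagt
The Isg15 gene spans chr4:156199424-156200818, Bst2 chr8:71534255-71537472, Rsad2 chr12:26442743-26456452 and, among genes named often below, Ifi27l2a chr12:103433873-103443680, Irf7 chr7:141263183-141266499 and Ifitm3 chr7:141009590-141010744, all protein coding. Promoters, from 250 bases before to 50 after the start, were matched for 25 of the 34 genes, all but Dhx58, Oas2, Mx1, Mx2, Usp18, Ifi27l2a, Zbp1, Parp14 and Rtp4. The core was found in 13 of these 25 (52.0%), against 1079 of 27025 genes with a promoter in the table (3.99%). The 13 were Isg15, Oas1a, Bst2, Rsad2, Ifit3, Ifit1, Ifit3b, Oas3, Ifih1, Ddx58, Trim30a, Ifitm3 and Stat2. The palindrome TTCNNNGAA, known as the gamma-activated site, was found in 6 of 25 (24.0%), against 9.55% of genes. A match is a description of the letters and not a site shown to be bound.

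The WT library held 17854 tagged cells and 721704064 reads, the CCR2-/- library 15955 tagged cells and 624480249 reads, with a median of 25067.5 and 21736 reads per cell. Before pooling, each suspension had been stained with its own hashtag antibody, here called a tag. There were 9 tags in WT (A0301 to A0309) and 8 in CCR2-/- (A0301 to A0308), with 1708 to 2212 cells each. Tags were grouped by number into a first block (A0301 to A0303), a second (A0304 to A0306) and the third (A0307 on, 3 tags in WT and 2 in CCR2-/-). No label ties a tag to a day or an animal, so the blocks are named by order only. P-values therefore measure the spread between tagged suspensions, which may be technical. The genotypes were run as separate libraries, so genotype and library cannot be told apart in any comparison below. Where blocks of the same tag numbers are set against each other between the libraries, they are assumed to match, which no label states. The libraries had 318 cell numbers in common. Ccr2 over all cells lay between 53.8 and 101 CPM (counts of a gene after each tag is scaled to an equal total) in the WT tags and between 1.45 and 4.39 in the CCR2-/- tags. At an equal depth of 5000 reads, fewer genes were detected per cell in CCR2-/- in every class, for example 413 against 495 in neutrophil-like cells and 1068 against 1147 in activated fibroblast-like cells. The part of this difference in the results was not tested.

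Cells were clustered without the interferon genes and Ccr2 and named by likeness to a type from fixed markers, and 21 classes had enough cells for a test. Of 29 clusters 5 kept a number only. Cluster 6 was led by the vessel genes Selp, Slc6a2 and Vwf, cluster 12 by Ctla4, Icos, Foxp3 and Il1rl1, cluster 18 by the dendritic cell genes Ccl17, Cd209a, Itgae and Xcr1, and cluster 21 by the airway genes Scgb1a1, Scgb3a2 and Ccdc153. Cluster 8 was led by the monocyte genes Ifitm6, Clec4a1, Adgre4, F13a1, Ccr2 and Plac8 and mixed 6 classical with 5 nonclassical monocyte markers. It held 1264 WT and 198 CCR2-/- cells. Values below are reads summed per class and tag and given in CPM, which does not correct for gene length, so levels are compared within a gene and not between genes.

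In WT the response was concentrated in neutrophil-like cells and cluster 8. Of the 34 genes, 13 had their highest mean in neutrophil-like cells, among them Isg15, Rsad2, Cmpk2, Ifit1, Oas2, Oas3, Oasl1, Oasl2, Ddx58 and Ifih1. A further 6 were highest in cluster 8 (Irf7, Ifi27l2a, Oas1a, Dhx58, Mx2 and Zbp1) and 2 in alveolar type 1 cell-like cells (Ifit3 and Ifit3b). Rsad2, whose product viperin makes a chain-ending nucleotide, had 888 ± 385 CPM in WT neutrophil-like cells (SD, n = 9), 224 ± 146 CPM in cluster 8 and its lowest level in alveolar type 2 cell-like cells (6.12 ± 5.40 CPM). The ubiquitin-like modifier Isg15 had 616 ± 229 CPM in neutrophil-like cells, 346 ± 390 CPM in alveolar type 1 cell-like cells and 10.3 ± 7.23 CPM in B cell-like cells. Irf7, the factor that amplifies interferon production, had 331 ± 130 CPM in cluster 8, 247 ± 116 CPM in neutrophil-like cells and 55.8 ± 37.5 CPM in alveolar macrophage-like cells.

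The genes of membrane restriction had another order. Ifitm3, which blocks the fusion of virus with endosomes, was highest in cluster 6 (4081 ± 675 CPM) and cluster 8 (3470 ± 469 CPM) and lowest in alveolar macrophage-like cells (106 ± 40.8 CPM). Bst2, or tetherin, which holds budding virus at the cell surface, ran from 1204 ± 372 CPM in cluster 6 to 140 ± 45.6 CPM in B cell-like cells. Ifi27l2a, a small interferon-induced membrane protein gene, ran from 1882 ± 610 CPM in cluster 8 and 1539 ± 1025 CPM in cluster 12 to 118 ± 68.4 CPM in general capillary endothelial cell-like cells. Each of these genes was thus present in every class, and neighbours in the order overlapped in their tags. The genes did not share 1 order of classes: over the 561 pairs of genes, the median correlation of levels across the 21 classes was 0.338 in WT and 0.154 in CCR2-/-, a description over classes that share tags and depth.

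**Figure D1:**
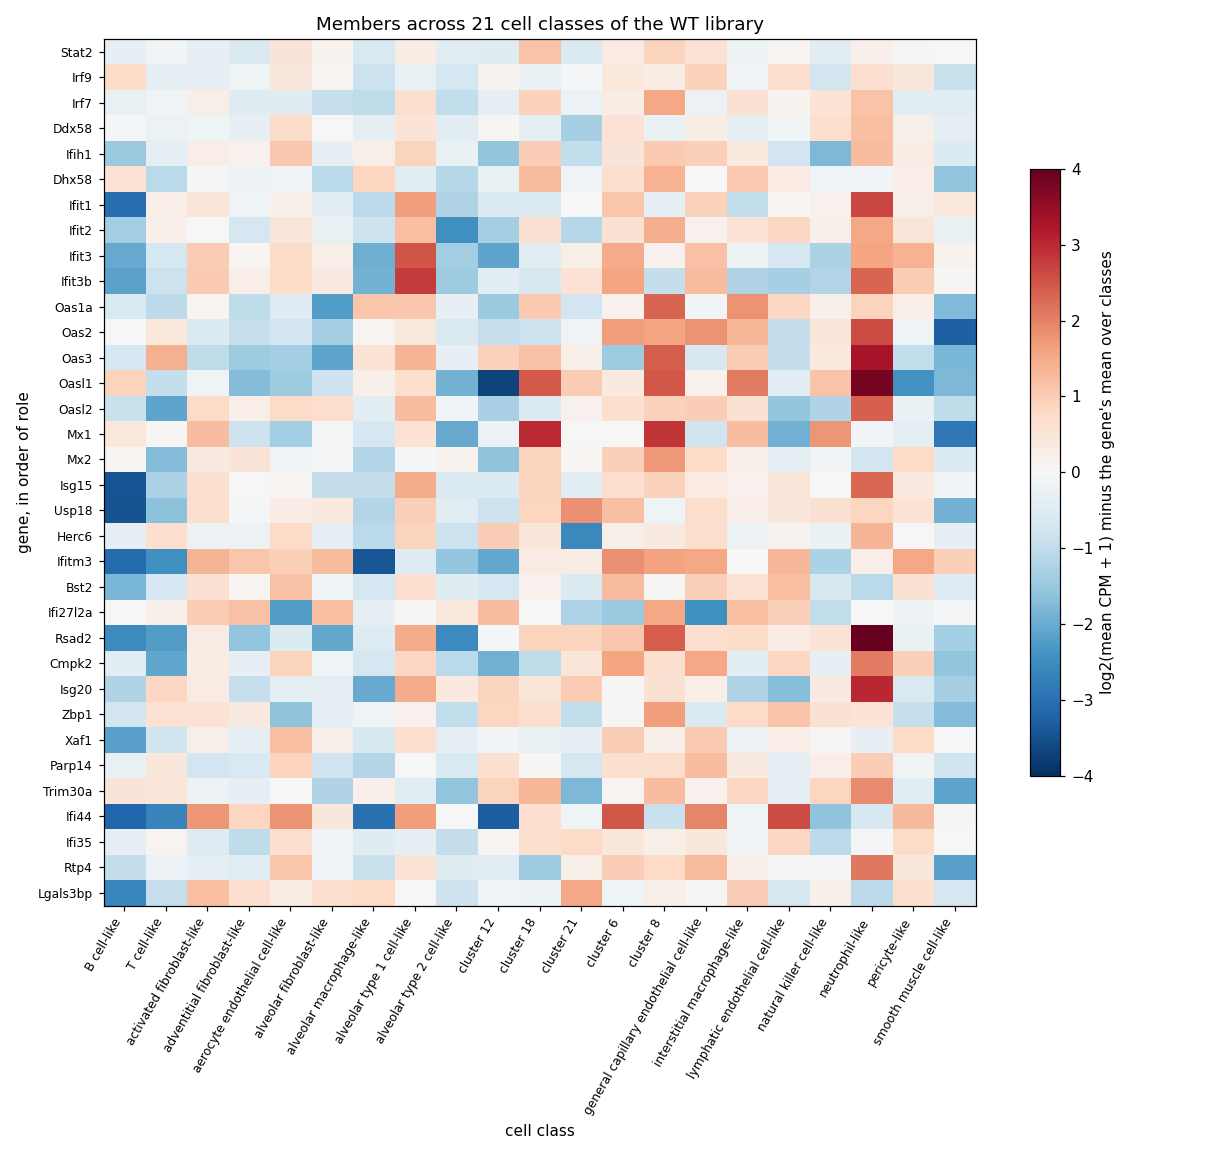
Levels of the 34 genes (rows) in 21 cell classes (columns) of the WT library, as log2 of mean CPM plus 1 over 9 tags, minus the gene's mean over the classes, with colour from -4 (low) to 4 (high). The neutrophil-like and cluster 8 columns are high for 13 and 6 genes as their highest class, while Ifit3 is highest in alveolar type 1 cell-like cells.

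By cells, a read of Rsad2 was found in 17.0% of WT neutrophil-like cells at 5000 reads a cell (18.9% without thinning) and in 8.03% of CCR2-/- ones (8.66% without). In the blocks the thinned share of Rsad2 was 29.0%, 20.7% and 9.78% in WT and 18.4%, 4.23% and 2.00% in CCR2-/-. In B cell-like cells the thinned Rsad2 share was 0.581% in WT and 0.355% in CCR2-/-. Median depths before thinning were 10411 reads in the neutrophil cluster and 12057.5 in the B cell cluster, and 9 CCR2-/- neutrophil-like cells were too shallow and left out. Of alveolar type 2 cell-like cells, 36.2% in WT (57.3%, 32.8% and 11.2% in the blocks) and 22.4% in CCR2-/- (39.6%, 11.2% and 2.54%) had a read of Ifi27l2a. Fewer cells with the transcript and less transcript in each cell are both possible within a summed level. For these 2 genes the shares fell across the blocks in the same direction as the levels given below.

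Over the 703 pairs of a gene with a class, the response genes were lower in the later tag blocks and lower in CCR2-/-, and almost no pair was higher. From the first to the second WT block 0 pairs passed by edgeR's quasi-likelihood test in either direction (0.0147% of all gene and class pairs passed as lower), with 30 at an unadjusted p under 0.05 (5.84% of all pairs) and 1 higher and 3 lower by DESeq2 (0.283% and 0.223% of all pairs). From the second to the third WT block 14 pairs were lower and 0 higher, where 0.22% of all pairs were lower. In CCR2-/- 15 pairs were lower and 0 higher from the first to the second block (0.0906% of all pairs lower), and 1 was lower and 1 higher from the second to the third (0.0409% lower). Between genotypes 67 pairs were lower in CCR2-/- and 0 higher, against 0.6% of all pairs lower.

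The direction was broader than the calls. From the second to the third WT block 80.1% of the pairs lay below zero (51.3% of all genes' pairs), and the median log2 change of the members was negative in all 21 classes, from -2.69 in alveolar type 1 to -0.09 in alveolar macrophage-like cells. In CCR2-/- 78.0% lay below zero from the first to the second block (48.2% of all genes' pairs) and 60.0% from the second to the third (53.0%). Between genotypes 91.3% lay below zero (54.9% of all genes' pairs), and the class medians ran from -3.02 in cluster 18 to -0.50 in aerocyte endothelial cell-like cells. From the first to the second WT block 64.3% lay below zero, with no share over all genes set beside it here. The class medians there ran from -0.64 to 1.04, and the highest was that of alveolar type 1 cell-like cells.

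**Figure D2:**
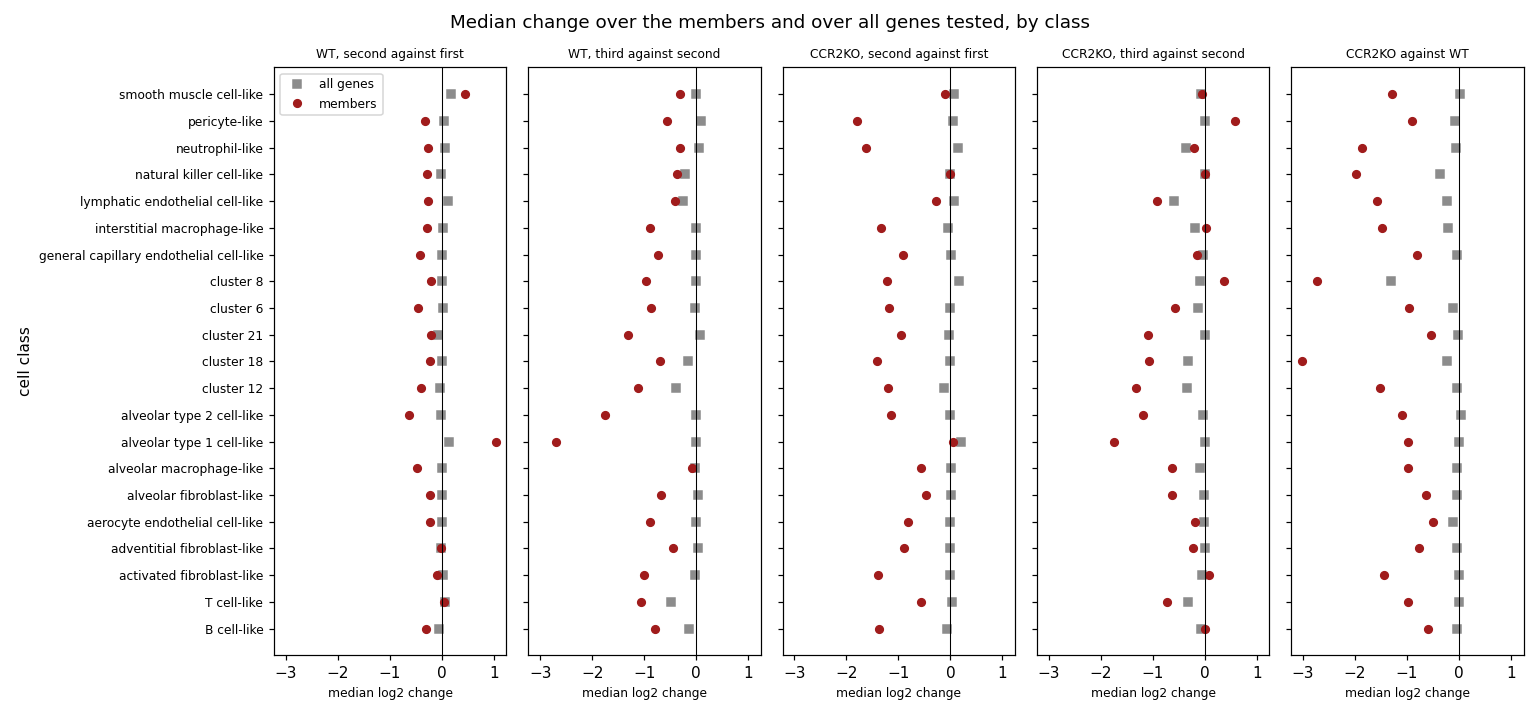
Median log2 change of the response genes (red) and of all genes tested (grey squares) in each of 21 cell classes, for the 4 comparisons of tag blocks and for CCR2-/- against WT. In the WT step from the second to the third block and between genotypes the red points lie below 0 in every class, and alveolar type 1 cell-like cells are lowest in that WT step (-2.69).

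In WT alveolar type 2 cell-like cells, which make surfactant, 4 genes fell from the second to the third block, against 0.333% of all genes lower in that class. Ifi27l2a had 1379.8, 1404 and 2312 CPM in the tags of the first block, 882, 682 and 894 in the second and 50.1, 98.9 and 64.7 in the third. The third block lay far below both others (log2 change -3.52, SE 0.29, adjusted p = 4.13e-06, edgeR quasi-likelihood with Benjamini-Hochberg adjustment here and throughout). Bst2 had 627, 449 and 753 CPM in the first block, 379.7, 383 and 343 in the second and 109, 102 and 101 in the third, with no overlap between the second and the third (log2 change -1.80, SE 0.20, adjusted p = 0.000154). Lgals3bp, a secreted scavenger glycoprotein, had 120.0, 147 and 131 CPM in the second block against 41.2, 24.9 and 33.1 in the third (log2 change -1.98, SE 0.33, adjusted p = 0.00707). Isg15 had 217, 51.7 and 103 CPM against 15.3, 17.4 and 4.90 (log2 change -3.30, SE 0.56, adjusted p = 0.00923, and 0.0536 without WT A0309). Ifitm3 was lower in each tag of the third block too (362, 275 and 429 against 128, 141 and 242 CPM) but did not pass (log2 change -1.06, SE 0.25, adjusted p = 0.0865). Of the 34 genes 31 lay below zero, with a median log2 change of -1.75.

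Alveolar type 1 cell-like cells, the thin cells of gas exchange, also had 4 genes lower from the second to the third WT block, against 0.296% of all genes. All 34 genes lay below zero, with a median log2 change of -2.69. Ifit3, a translation blocker that pairs with IFIT1, had 99.5, 262 and 344 CPM in the first block, 1272, 524 and 650.1 in the second and 115, 53.0 and 69.4 in the third. All tags of the second block were thus above both others. The fall to the third passed for Ifit3 (log2 change -3.35, SE 0.56, adjusted p = 0.00329), and the difference of the second from the first did not (1.99, SE 0.53, adjusted p = 0.153). Reads of Ifit3 and its near copy Ifit3b cannot be fully told apart, since 51.2% of the 50-base words of Ifit3 transcripts occur in transcripts of other genes. Isg15 had 46.5, 247 and 299 CPM, then 1069, 392 and 914, then 19.6, 95.4 and 31.7 (log2 change from the second to the third block -4.02, SE 0.84, adjusted p = 0.0252). Its tags too were highest in the second block. The Isg15 call was lost when WT A0304, A0306, A0307 or A0309 was left out (adjusted p up to 0.191, without A0307). Ifi27l2a had 849, 491 and 1336 CPM in the second block against 33.3, 53.0 and 35.0 in the third (log2 change -4.46, SE 0.64, adjusted p = 0.000695). Bst2 had 1478, 1001 and 1667 CPM against 295, 183 and 247 (log2 change -2.50, SE 0.33, adjusted p = 0.000249). None of the 4 overlapped between these blocks, which adds no support, since they were called on the same tags.

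Markers of other cells moved in the same direction in this class. The 10 classical monocyte markers summed to 1550 to 2200 CPM in the second WT block of alveolar type 1 cell-like cells, 543 to 956 in the first and 327 to 931 in the third. Here and below these 10 include Ccr2, and also Ly6c2 and Ms4a4c, which are themselves interferon-stimulated genes. Their sum is therefore not independent of the genotype or of the interferon response. Neutrophil markers (12) summed to 171 to 219, 22.6 to 332 and 42.9 to 69.0 CPM in the same order. Genes detected at 5000 reads were 1121 in the second block, 951 in the first and 985 in the third. The part of these in the fall was not tested. In alveolar type 2 cell-like cells the 12 interstitial macrophage markers summed to 436 to 872 CPM in the second WT block and 200.0 to 338 in the third, and their part was not tested either.

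In WT activated fibroblast-like cells, the matrix-making fibroblasts of the injured lung, 3 genes fell from the second to the third block, against 1.66% of all genes lower in that class, the highest such share of the classes described for this step. Ddx58, the RNA sensor RIG-I, had 52.7, 49.4 and 63.7 CPM in the second block and 20.2, 19.2 and 3.39 in the third (log2 change -1.95, SE 0.49, adjusted p = 0.0344). Bst2 had 956, 839 and 1133 CPM against 382, 351 and 426 (log2 change -1.32, SE 0.27, adjusted p = 0.00965). Lgals3bp had 483, 409 and 608 CPM against 225, 239.8 and 288 (log2 change -0.98, SE 0.20, adjusted p = 0.0105). The blocks did not overlap for these 3, but the genes were called on the same tags, so this adds no support. Over the same step scar-type macrophage markers in this class went from 6590 to 8870 CPM to 3150 to 3880, and classical monocyte markers from 6430 to 7160 CPM to 4140 to 4960, and their part was not tested. Leaving out WT A0306 ended all 3 calls (adjusted p = 0.127, 0.0594 and 0.0756). The call of Ddx58 was also lost without A0304, A0305 or A0309 and in 4 other settings (up to 0.206), and that of Lgals3bp without A0307. Ifi27l2a (log2 change -1.01, SE 0.27, adjusted p = 0.0506), Irf7 (-1.21, adjusted p = 0.132) and Isg15 (-1.07, adjusted p = 0.192) did not pass, and Ifitm3 had a log2 change of -0.04. The class median was -1.01, with 32 of 34 genes below zero.

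Single genes fell in 3 more WT classes from the second to the third block. Ifi27l2a had 2433, 1628 and 1387 CPM in cluster 12 in the second block and 431, 222 and 479.8 in the third (log2 change -2.36, SE 0.34, adjusted p = 0.0013; 0.0788% of all genes lower). In aerocyte endothelial cell-like cells, the capillary cells of gas exchange, Ifi27l2a had 222, 104 and 308.1 CPM against 14.4, 27.8 and 7.45 (log2 change -3.68, SE 0.62, adjusted p = 0.0301; 0.0236% of all genes lower). The aerocyte call was lost without WT A0304, A0306, A0307, A0308 or A0309 (adjusted p up to 0.313, without A0306) and in 4 other settings. Bst2 in cluster 6 had 1451, 1261 and 1237 CPM against 909, 609.9 and 718 (log2 change -0.82, SE 0.16, adjusted p = 0.0367; 0.0915% of all genes lower). That call was lost in 10 of 17 fits with 1 tag left out (adjusted p up to 0.3, without WT A0308). It was also lost with each library fitted alone and with doublet calls kept (0.706).

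**Figure D3:**
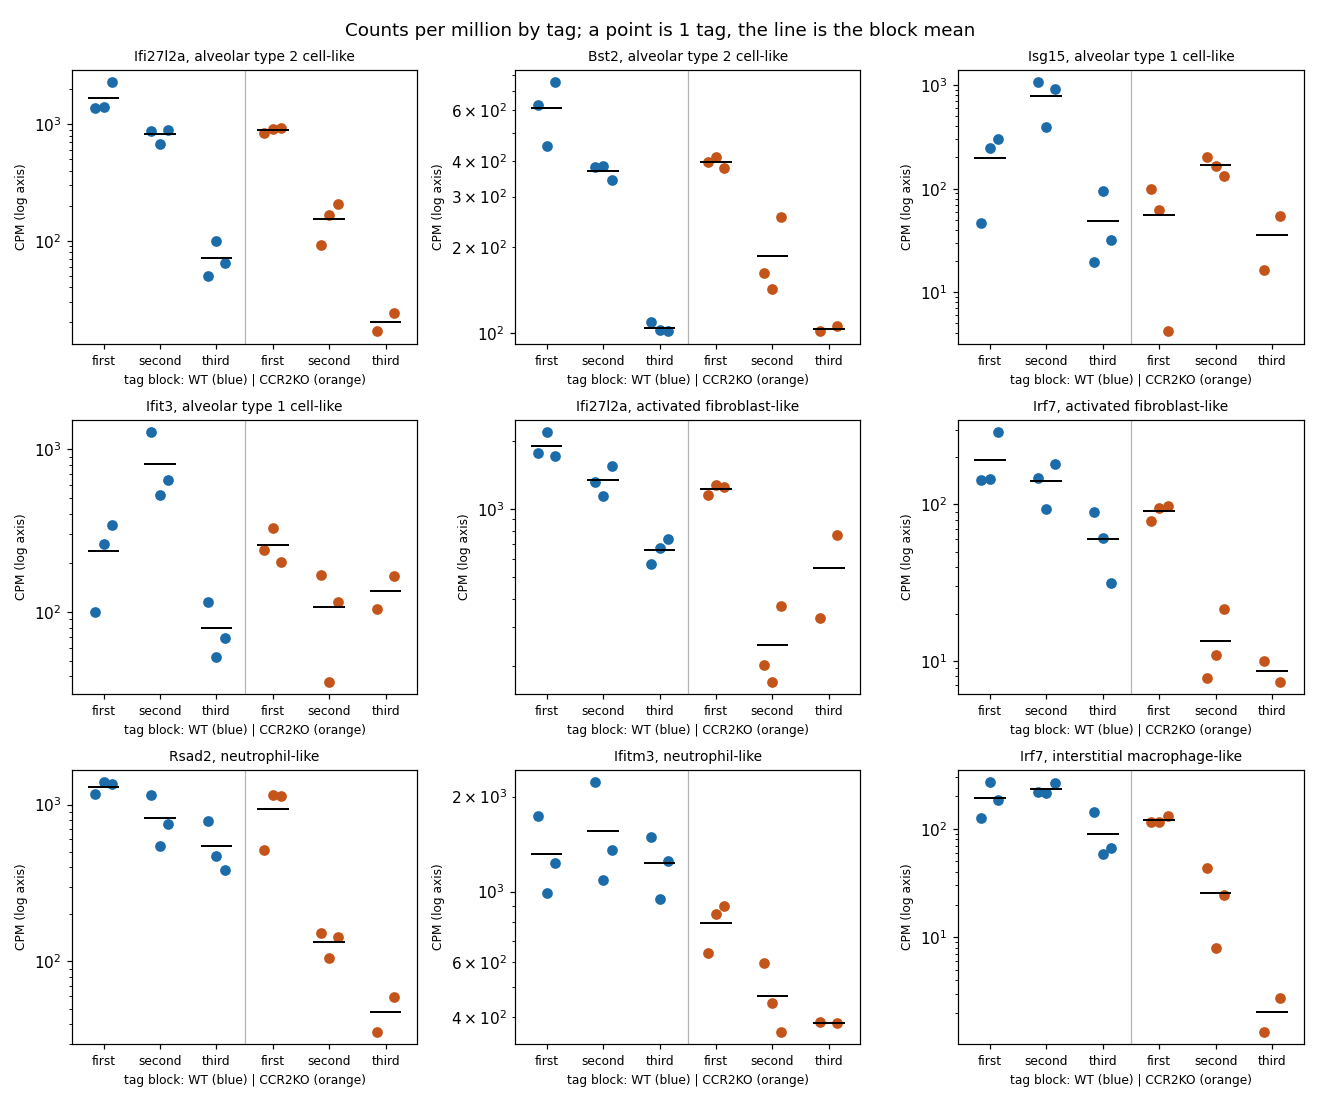
CPM of 9 pairs of a gene and a cell class on a log axis, by tag block, with 1 point per tag (WT blue, CCR2-/- orange) and a line at each block's mean. Ifi27l2a and Bst2 in alveolar type 2 cell-like cells step down to the third WT block, Isg15 and Ifit3 in alveolar type 1 cell-like cells peak in the second WT block, and Ifitm3 in neutrophil-like cells separates the genotypes.

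In CCR2-/- most calls stood between the first and the second block. In activated fibroblast-like cells 8 genes were lower in the second block, against 0.81% of all genes, and all 34 lay below zero, with a median log2 change of -1.40. Irf7 had 78.2, 94.8 and 97.8 CPM in the first block, 7.77, 11 and 21.3 in the second and 9.92 and 7.38 in the third (log2 change -2.78, SE 0.42, adjusted p = 0.00195). Ifi27l2a had 1158, 1285 and 1258 CPM, then 203, 171 and 369, then 328 and 769.9 (log2 change -2.34, SE 0.28, adjusted p = 0.000211). In both genes every tag of the second block was far below the first.

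The others in these fibroblasts came from several arms of the response. Oas1a, which makes the messenger that activates RNase L, had 28.1, 38.5 and 32.3 CPM in the first CCR2-/- block and 0.843, 4.06 and 4.87 in the second (log2 change -3.37, SE 0.68, adjusted p = 0.015). Trim30a, a tripartite motif protein, had 46.8, 67.1 and 68.8 CPM against 7.31, 11.8 and 7.94 (log2 change -2.78, SE 0.50, adjusted p = 0.00692), and Ifit1, which binds viral RNA caps, had 19.8, 30.9 and 67.8 against 6.09, 6.86 and 10.6 (log2 change -2.35, SE 0.51, adjusted p = 0.0243). Ifi44 had a log2 change of -2.50 (SE 0.59, adjusted p = 0.0357). Bst2 had 489, 673 and 715 CPM against 139.7, 212 and 359 (log2 change -1.43, SE 0.27, adjusted p = 0.0104), and Lgals3bp fell by 1.24 on the log2 scale (SE 0.20, adjusted p = 0.00376). No tag of the second block reached the first in these 8 genes, but they were called on the same tags, so this adds no support. Of them Irf7, Ifi27l2a and Lgals3bp passed in every fit run. Leaving out CCR2-/- A0304 or A0305 ended the calls of Bst2 (adjusted p up to 0.0797), Oas1a (0.089), Ifit1 (0.173) and, for A0304 only, Trim30a (0.07). Oas1a was also lost without A0302 and Ifit1 without A0302 or A0303, and Ifi44 was lost in 8 of 17 fits (adjusted p up to 0.208, without A0305). Fitting the library alone ended Bst2, Ifi44 and Ifit1, and the stricter cell filter ended Ifi44, Ifit1 and Trim30a (highest adjusted p = 0.225, Ifit1). Oas1a reads are uncertain, since 57.6% of its 50-base words also occur in transcripts of other genes, among them Oas1g.

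The 12 interstitial macrophage markers in CCR2-/- activated fibroblast-like cells summed to 1560 to 1900 CPM in the first block, 537 to 813 in the second and 402 to 460 in the third. In the WT cells of this class they summed to 1500 to 1520, 875 to 1180 and 265 to 436 CPM. Their part in the fall was not tested. Immediate early genes, which tissue digestion induces, were lower too, in 6 of 18 measured in these CCR2-/- cells from the first to the second block (0.81% of all genes).

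In CCR2-/- alveolar type 2 cell-like cells Ifi27l2a stepped down at each block, with 841, 911 and 937 CPM, then 92.1, 165 and 206, then 16.6 and 23.7. Both steps passed, with log2 changes of -2.51 (SE 0.28, adjusted p = 8.99e-05) and -2.90 (SE 0.34, adjusted p = 0.00146). The second of these calls was lost without CCR2-/- A0307 (adjusted p = 0.128) and with doublet calls kept (0.227). Bst2 had 394, 413 and 378 CPM in the first block and 162, 143 and 254 in the second (log2 change -1.06, SE 0.20, adjusted p = 0.0234). The Bst2 call was lost when any of the tags A0301 to A0305 was left out (adjusted p up to 0.157, without A0304). These were 2 genes lower from the first to the second block, against 0.18% of all genes, and 1 from the second to the third, against 0.02%. The class medians were -1.15 and -1.20.

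Another 5 classes had 1 gene each lower from the first to the second CCR2-/- block. In neutrophil-like cells Rsad2 had 514, 1149.7 and 1125 CPM in the first block, 152, 105 and 144 in the second and 35.7 and 59.6 in the third (log2 change -2.94, SE 0.37, adjusted p = 0.00215; 0.0173% of all genes lower). In WT neutrophil-like cells the Rsad2 values were 1172, 1382 and 1353, then 1153, 546 and 750.2, then 783, 469 and 385, and only the second and the third block overlapped. The CCR2-/- call of Rsad2 was lost without A0305 (adjusted p = 0.0569). Bst2 in cluster 6 had 1371, 1484 and 1811 CPM against 684, 595 and 781 (log2 change -1.19, SE 0.16, adjusted p = 0.00138; 0.0229% of all genes lower), and with doublet calls kept its adjusted p was 0.216. Ifi27l2a accounted for the other 3. In cluster 21 Ifi27l2a had 55.4, 324 and 435 CPM against 1.93, 0 and 6.71, and then 169.9 and 23.6 in the third block (log2 change -6.41, SE 1.04, adjusted p = 0.0143; 0.0146% lower). In alveolar type 1 cell-like cells Ifi27l2a had 1555, 461 and 246 CPM against 58.7, 26.2 and 118 (log2 change -3.36, SE 0.61, adjusted p = 0.0312; 0.0759% lower). In cluster 8 Ifi27l2a had 842, 1981 and 1105 CPM against 354, 268 and 523 (log2 change -1.52, SE 0.29, adjusted p = 0.0182; 0.0318% lower). The Ifi27l2a call was lost in cluster 21 without A0302, A0303, A0304 or A0305 (adjusted p up to 0.314), in alveolar type 1 cell-like cells without A0301, A0304 or A0305 (0.185) and in cluster 8 without A0305 (0.0565). It was also lost in 4 other settings in alveolar type 1 cell-like cells (up to 0.119), in 4 in cluster 8 (up to 0.658) and with the stricter cell filter in cluster 21 (0.0853).

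From the second to the third CCR2-/- block the single pair that rose was Ifitm3 in interstitial macrophage-like cells (tissue macrophages that make complement C1q). It had 552, 349.5 and 396 CPM in the second block and 779 and 1298 in the third (log2 change 1.28, SE 0.22, adjusted p = 0.0335; 0.0224% of all genes higher). This Ifitm3 call was lost in 8 of 17 fits with 1 tag left out (adjusted p up to 0.103, without A0308), with the library fitted alone (0.476) and with doublet calls kept (0.176). Scar-type macrophage markers in this class summed to 5910 to 7500 CPM in the second CCR2-/- block and 3290 to 15900 in the third, and their part was not tested.

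Whether the steps between blocks differed between the genotypes was tested directly, and no pair passed by edgeR's quasi-likelihood test. This test takes blocks of the same tag numbers as matched between the libraries, which no label states. For the step from first to second block 0 of 703 passed (0.00368% of all pairs passed in either direction), with 85 at an unadjusted p under 0.05 (7.32% of all pairs) and, by DESeq2, 18 lower and 1 higher (0.273% and 0.355% of all pairs). In activated fibroblast-like cells all 34 differences of the first step lay below zero, with a median of -1.33 on the log2 scale. Ifi27l2a had -1.83 there (SE 0.38, adjusted p = 0.113) and Irf7 -2.32 (SE 0.56, adjusted p = 0.187). For the step from the second to the third block 0 passed (0.0155% of all pairs in either direction), with 106 at an unadjusted p under 0.05 (7.71% of all pairs) and, by DESeq2, 9 lower and 16 higher (0.606% and 0.364% of all pairs). The lowest adjusted p was that of Ifitm3 in interstitial macrophage-like cells (difference 1.53, SE 0.29, adjusted p = 0.074). A fall in one block order in WT and another in CCR2-/- is therefore a description of each library.

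Between genotypes, with the 3 blocks weighted alike, 26 of the 34 genes were lower in CCR2-/- in at least 1 class, as were 6.13% of all 19785 genes tested. In the classes other than cluster 8, 20 of the 34 and 1.88% of all genes were. Ifi27l2a and Ifitm3 were lower in 9 classes each, Xaf1, an interferon-induced promoter of cell death, in 5, and Irf7, Isg15 and Oasl2 in 4 each. By role, membrane restriction genes were lower in 20 of 63 pairs, against 0.6% of all pairs, and below zero in 63 of 63. The OAS family of RNA-activated enzymes was lower in 10 of 101 pairs and the IFIT translation blockers in 8 of 84. Genes of nucleic acid binding and cell death were lower in 7 of 84, signalling factors in 4 of 63, the genes of ISG15 conjugation and removal in 4 of 62, nucleotide and RNA metabolism in 4 of 63, the RIG-I family of RNA sensors in 2 of 63 and the Mx GTPases in 2 of 37. The other 6 calls were among 83 pairs of Ifi44, Ifi35, Rtp4 and Lgals3bp. The background of 0.6% is uneven, since cluster 8 held 930 of the 1628 lower calls over all genes, with 7.39% of its genes lower. Both Mx calls and part of the OAS and IFIT calls lay in cluster 8.

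Activated fibroblast-like cells had the most calls, 18 of 34, against 1.29% of all genes lower in that class. All 34 genes lay below zero, with a median log2 change of -1.45 where that of all genes was -0.001. Of the signalling factors Irf7 was called: it had 142.5, 146 and 289, then 148, 93.3 and 183, then 89.0, 61.1 and 31.5 CPM in the WT blocks, and the CCR2-/- tags were given above. Within each block the CCR2-/- tags of Irf7 lay below every WT tag (log2 change -2.45, SE 0.26, adjusted p = 5.66e-05). Isg15 had 196, 149.9 and 325, then 244, 148 and 330.3, then 128, 88.5 and 123 CPM in WT. In CCR2-/- Isg15 had 58.2, 97.7 and 65.3, then 27.4, 34.6 and 75.5, then 12.8 and 20.9, below every WT tag of the same block (log2 change -2.27, SE 0.25, adjusted p = 7.08e-05). Ifitm3 had 2652 to 3330.1 CPM over the WT tags and 1629 to 2537 over the CCR2-/- tags, with no overlap, and the smallest change of the 18 (log2 change -0.48, SE 0.07, adjusted p = 0.00113).

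In the effector families of these fibroblasts, 3 of 4 IFIT genes were lower. Ifit1 had 23.7 to 96.8 CPM in WT and 0.62 to 67.8 in CCR2-/- (log2 change -2.76, SE 0.33, adjusted p = 0.000143), with Ifit3 at -2.07 (adjusted p = 0.0309) and Ifit2 at -1.54 (adjusted p = 0.0454). Of the OAS genes 3 of 5 were lower, namely Oas2 (log2 change -5.03, SE 1.03, adjusted p = 0.0169, from WT levels of 1.76 to 14.8 CPM), Oasl2 (-1.94, adjusted p = 0.0122) and Oas1a (-1.88, adjusted p = 0.019). Rsad2 fell by 3.50 on the log2 scale (SE 0.64, adjusted p = 0.00616), with 1 WT tag, A0303, at 222 CPM and the other WT tags at 11.4 to 46.5. All 3 membrane restriction genes were lower, with Bst2 at -1.31 (adjusted p = 0.000249) and Ifi27l2a at -1.13 (adjusted p = 0.000908). Of the RNA sensors Dhx58, or LGP2, was lower (-1.67, adjusted p = 0.0169). Ifi44 (-2.60, adjusted p = 0.00077), Trim30a (-1.71, adjusted p = 0.00402), Rtp4 (-1.36, adjusted p = 0.0136), Xaf1 (-1.22, adjusted p = 0.000159) and Lgals3bp (-0.77, adjusted p = 0.00184) complete the 18. Usp18, which strips ISG15 from proteins, had a log2 change of -1.97 (SE 0.62, adjusted p = 0.129), and neither Mx gene, both annotated by RefSeq as transcribed pseudogenes, passed.

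Of these 18, Irf7, Isg15, Ifit1, Ifi44, Oasl2, Bst2, Ifi27l2a, Ifitm3, Xaf1 and Lgals3bp passed in every fit run. With 1 tag left out, Ifit2 was lost in 14 of 17 fits (adjusted p up to 0.184, without CCR2-/- A0307) and Ifit3 in 9 (up to 0.0649, without WT A0306). Without CCR2-/- A0307 or A0308, Dhx58 (0.0778) and Oas2 (0.102) were lost, without A0307 Rtp4 (0.083), and without A0308 Oas1a (0.0968). With cells of at least 500 genes and at most 15% mitochondrial reads, Dhx58, Ifit2, Ifit3, Oas1a, Rsad2, Rtp4 and Trim30a did not pass (highest adjusted p = 0.367, Rtp4).

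**Figure D4:**
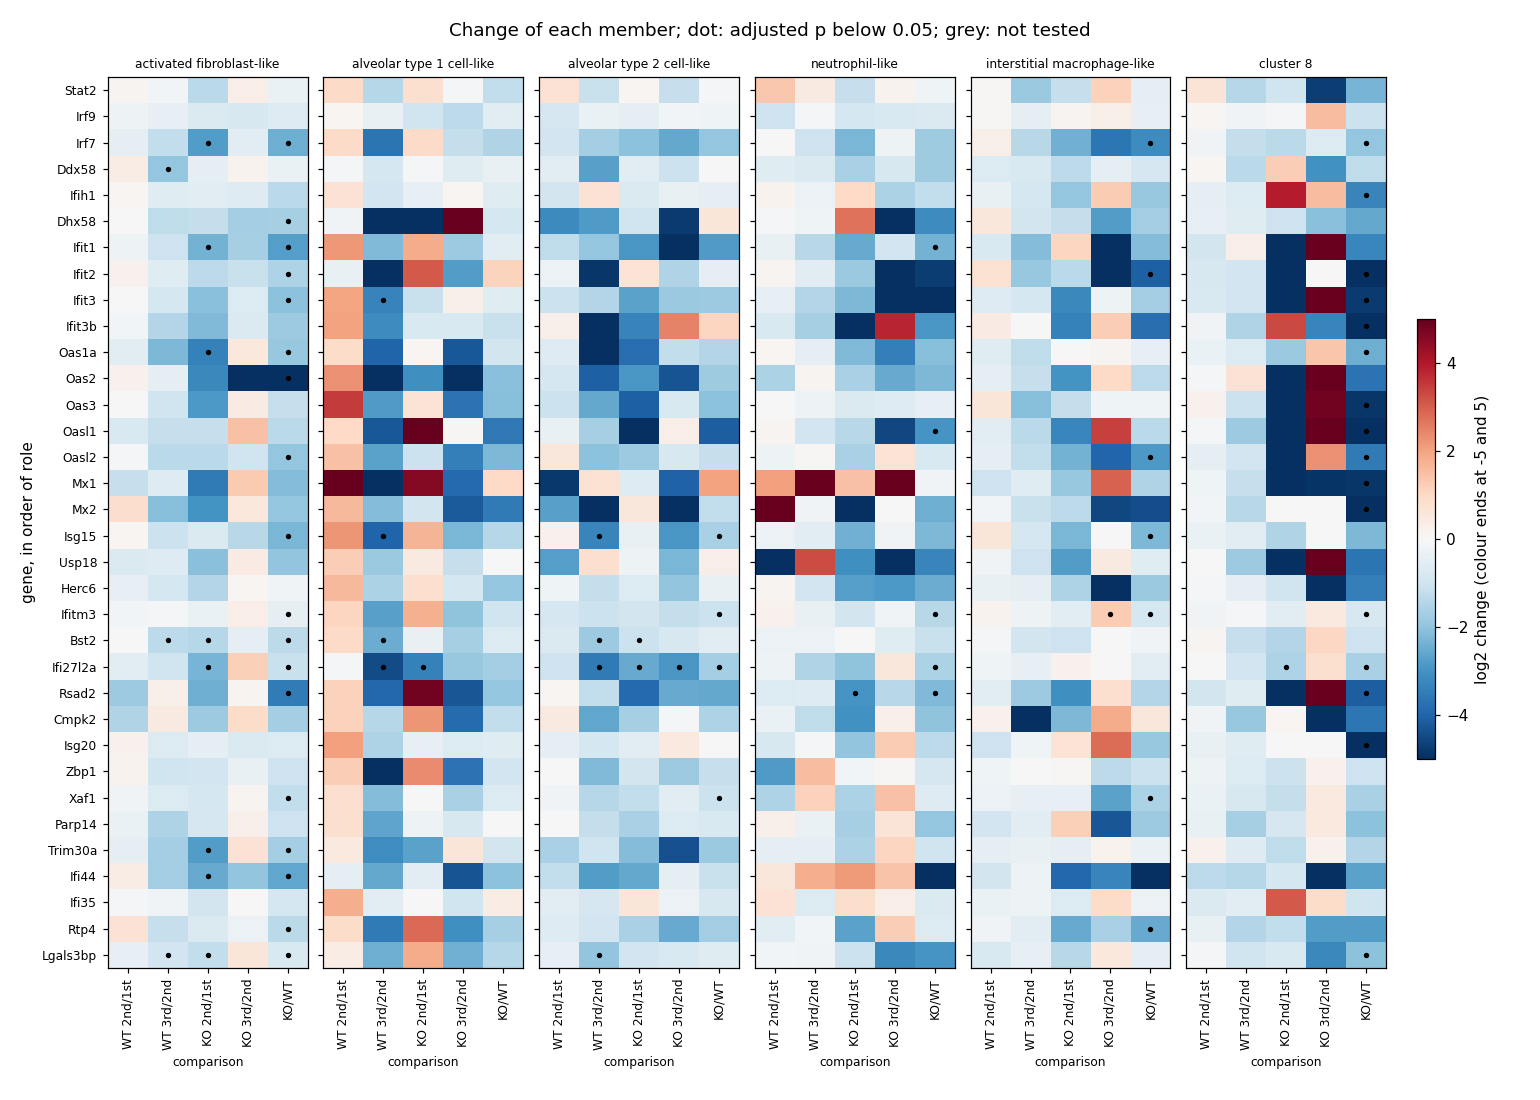
Log2 change of each response gene (rows) in 5 comparisons (columns) for 6 cell classes (panels), with colour ends at -5 and 5 and a dot where the edgeR adjusted p was under 0.05. Activated fibroblast-like cells have 18 dots and cluster 8 has 16 in the comparison of CCR2-/- with WT, and no dot stands on a positive change except that of Ifitm3 in interstitial macrophage-like cells.

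In neutrophil-like cells 5 genes were lower in CCR2-/-, against 0.13% of all genes, and all 34 lay below zero, with a median log2 change of -1.86. Ifitm3 had 1729, 991 and 1233, then 2215, 1091 and 1352, then 1487, 951 and 1253 CPM in WT, and 641, 852 and 900.5, then 593, 446 and 361, then 387 and 383 in CCR2-/-. No CCR2-/- tag reached the lowest WT tag (log2 change -1.40, SE 0.18, adjusted p = 0.000517). Rsad2, with the values given above, had a log2 change of -2.22 (SE 0.22, adjusted p = 3.16e-05). The CCR2-/- tags of the first block lay within the WT range of Rsad2, and those of the other two blocks lay below every WT tag. Ifi27l2a had 222 to 1183 CPM in WT and 57.1 to 454 in CCR2-/- (log2 change -1.59, SE 0.28, adjusted p = 0.0175), Oasl1 had 133 to 635 and 0.893 to 339.9 (-2.94, SE 0.56, adjusted p = 0.0349), and Ifit1 had 105 to 549 and 9.32 to 299 (-2.35, SE 0.43, adjusted p = 0.0333). With 1 tag left out the calls of Oasl1 (12 of 17 fits, adjusted p up to 0.207 without CCR2-/- A0307) and Ifit1 (8 of 17, up to 0.138 without A0308) were lost, and that of Ifi27l2a was lost without A0307 (0.0878). With the interferon genes in the clustering Ifit1 (0.161) and Oasl1 (0.0524) did not pass. With the stricter cell filter this class had no match (0.498 of cells in common, under the 0.5 required). No call in neutrophil-like cells was therefore checked under that filter. Isg15 (log2 change -2.23, SE 0.50, adjusted p = 0.102) and Ifit3 (-5.22, SE 1.03, adjusted p = 0.0521) did not pass. Interstitial macrophage markers in neutrophil-like cells summed to 268 to 1460 CPM over the WT tags and 74.8 to 359 over the CCR2-/- tags, and their part was not tested.

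In interstitial macrophage-like cells 7 genes were lower, against 0.695% of all genes. Irf7 had 126, 269 and 186, then 218, 216 and 263, then 145, 58.8 and 66.2 CPM in WT, and 116, 116 and 131, then 43.9, 7.91 and 24.4, then 1.34 and 2.75 in CCR2-/-. The CCR2-/- tags of Irf7 were lowest in the third block, below 3 CPM (log2 change -3.16, SE 0.35, adjusted p = 0.000119). Rtp4, a chaperone of membrane receptors, had 28.6 to 96.4 CPM in WT and 1.83 to 80.7 in CCR2-/- (-2.53, SE 0.39, adjusted p = 0.00179). Ifitm3 had 934 to 1375 CPM in WT, and every CCR2-/- tag lay below that range except A0308, at 1298 (-0.90, SE 0.12, adjusted p = 0.000604). Ifit2 (log2 change -4.09, adjusted p = 0.0173), Oasl2 (-2.85, adjusted p = 0.0339), Isg15 (-2.26, adjusted p = 0.0305) and Xaf1 (-1.56, adjusted p = 0.0311) passed too. Each of these 4 was lost in some fits with 1 tag left out: Ifit2 without WT A0306 or CCR2-/- A0308 (adjusted p up to 0.0546), Oasl2 in 12 of 17 fits (0.0956, without A0308), Isg15 in 10 (0.0716, without WT A0306) and Xaf1 in 10 (0.0764, without WT A0303). Each was also lost in 1 to 3 other settings (up to 0.137, Xaf1 with the stricter cell filter). Ifi27l2a (-0.53, adjusted p = 0.102) and Bst2 (-0.16, adjusted p = 0.714) did not pass in this class. Its 10 scar-type macrophage markers summed to 18500 to 23400 CPM in the first CCR2-/- block and 6160 to 7730 in the first WT block. The 10 classical monocyte markers summed to 881 to 1700 CPM in the second CCR2-/- block and 3160 to 3750 in the second WT block. That list holds Ccr2, the gene targeted in CCR2-/-, and the interferon-stimulated genes Ly6c2 and Ms4a4c. The part of both marker lists in the genotype difference was not tested.

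Alveolar macrophage-like cells had 4 genes lower, against 0.779% of all genes, with 34 of 34 below zero. Oasl2 had 7.89 to 66.6 CPM in WT and 0 to 41.6 in CCR2-/- (log2 change -3.75, SE 0.61, adjusted p = 0.003). Xaf1 had 44.9 to 93.0 and 2.38 to 66.3 (-1.45, SE 0.25, adjusted p = 0.00549), and Ifi27l2a a log2 change of -1.12 (SE 0.18, adjusted p = 0.00354). Zbp1, a sensor of Z-form nucleic acid that can trigger cell death, had 20.6 to 54.4 and 5.55 to 41.3 CPM (-1.33, SE 0.27, adjusted p = 0.0194, and 0.0893 without CCR2-/- A0307). The ranges of Oasl2, Xaf1 and Zbp1 overlapped. Interstitial macrophage markers in this class summed to 1690 to 2080 CPM in the second CCR2-/- block and 291 to 587 in the second WT block, and scar-type macrophage markers to 28900 to 34000 and 8080 to 18800. Their part was not tested.

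In alveolar type 2 cell-like cells 4 genes were lower in CCR2-/-, against 0.22% of all genes. Ifi27l2a had a log2 change of -1.71 (SE 0.17, adjusted p = 2.64e-05), and within each block its CCR2-/- tags, given above, lay below every WT tag. Ifitm3 had 560.1, 564 and 839, then 362, 275 and 429, then 128, 141 and 242 CPM in WT, and 323, 344 and 330.3, then 125, 161 and 230.0, then 72.0 and 76.1 in CCR2-/- (-1.08, SE 0.15, adjusted p = 0.00175). Within each block the genotypes did not overlap for Ifitm3. Isg15 (-1.61, SE 0.32) and Xaf1 (-1.07, SE 0.21) passed with an adjusted p of 0.0388 each, and both were lost in 13 of 17 fits with 1 tag left out (up to 0.225, without CCR2-/- A0307). With the stricter cell filter the calls of Ifitm3 (adjusted p = 0.15), Isg15 (0.0939) and Xaf1 (0.102) were lost. In alveolar type 1 cell-like cells 0 of 34 passed by edgeR's test, with 13 at an unadjusted p under 0.05. Over all classes together, 11.4% of all pairs of a gene with a class had an unadjusted p under 0.05 between genotypes. By DESeq2 5 of the 34 were lower in alveolar type 1 cell-like cells (0.797% of all genes in that class). Ifi27l2a had the log2 change -1.70 there (SE 0.35, adjusted p = 0.0644 by edgeR).

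Cluster 8 had 16 genes lower, against 7.39% of all genes, and the median of all genes in it was itself -1.31 on the log2 scale, beside -2.74 for the response genes. Each CCR2-/- tag held 13 to 41 of its cells and 261942 to 830997 reads, against 105 to 215 cells and 3241803 to 7158026 reads in WT, and genes detected at 5000 reads were 635 and 838. Classical monocyte markers summed to 5970 to 7430 CPM in the second CCR2-/- block and 10800 to 13500 in the second WT block, and to 9860 to 9970 and 13700 to 18500 in the third. These markers include Ccr2, the gene targeted in CCR2-/-, and the interferon-stimulated genes Ly6c2 and Ms4a4c, so their sum is not independent of either. The part of depth and of these markers in the calls was not tested. Ifi27l2a had 2445, 2232 and 2291, then 2159.8, 2478 and 2013, then 970.5, 966 and 1380.1 CPM in WT and 268 to 1981 in CCR2-/- (log2 change -1.61, SE 0.18, adjusted p = 1.4e-05). Ifitm3 had 2791 to 4368 CPM in WT and 1147 to 3779 in CCR2-/- (-0.81, SE 0.13, adjusted p = 0.00203, and 0.113 by DESeq2). Both overlapped between the genotypes.

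The other calls in cluster 8 rested on few reads in CCR2-/-. Isg20, an exonuclease, and Mx2 had no read in any of the 8 CCR2-/- tags, from 1760 and 1025 reads in WT. Against a floor of 3 reads over the CCR2-/- group the ratios were 61.8-fold and 36.0-fold. A cell can hold many reads of 1 molecule, and the median nonzero entry in the CCR2-/- library was 11 reads. The floor is thus below a typical single detection, and these ratios are not lower limits of the change. Oas3 had 65.5 and 241 CPM in CCR2-/- A0301 and A0302, 2.42 in A0308 and 0 in the other 5 tags, against 4.77 to 86.6 in WT (log2 change -4.85, SE 1.22, adjusted p = 0.026), and Oas1a had 88.0 to 282 CPM in WT and 0 to 160.3 in CCR2-/- (-2.44, SE 0.63, adjusted p = 0.0262). Rsad2 had 33.7 to 486 CPM in WT and 510.1, 0 and 72.9, then 0, 0 and 1.20, then 0 and 42.3 in CCR2-/- (-4.14, SE 0.90, adjusted p = 0.0144). Irf7 had 124 to 470.0 CPM in WT and 620.0 in CCR2-/- A0301, with 3.82 to 154 in the other 7 tags (-1.92, SE 0.58, adjusted p = 0.0452). The single tag A0301 was thus above the WT range for Irf7 and Rsad2. The remaining calls were Ifit2, Ifit3, Ifit3b, Mx1, Oasl1, Oasl2, Ifih1, which encodes the RNA sensor MDA5, and Lgals3bp. Of the 16, Ifi27l2a and Isg20 passed in every fit run. Ifit3, Mx2, Oasl1 and Rsad2 were lost without CCR2-/- A0307, and Ifit2, Ifit3b, Mx1, Oas1a and Oas3 without either A0307 or A0308 (adjusted p from 0.0607 for Mx2 to 0.0972 for Oas3 at the highest). Ifih1, Irf7, Lgals3bp and Oasl2 were lost in 13, 13, 8 and 10 of 17 fits (up to 0.128). Ifih1, Irf7, Lgals3bp, Oas1a and Oasl2 also did not pass with RLE size factors (adjusted p up to 0.106), which moved the log2 changes in this class by 0.307. With the interferon genes in the clustering 9 of the 16 were lost: Ifit2, Ifit3, Ifit3b, Irf7, Lgals3bp, Mx1, Oasl1, Oasl2 and Rsad2 (adjusted p from 0.0542 for Oasl1 to 0.244 for Rsad2). The stricter cell filter ended the calls of Ifit3b, Irf7, Lgals3bp, Oasl2 and Rsad2 (0.0525 for Irf7 to 0.225 for Oasl2), resolution 0.8 those of Ifih1 (0.221) and Ifit3b (0.0569), and doublet calls kept that of Irf7 (0.0649).

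In the other classes the calls were fewer and centred on Ifi27l2a and Ifitm3. In adventitial fibroblast-like cells 3 genes were lower, against 0.467% of all genes. Ifitm3 had 2213 to 3091 CPM in WT and 1699 to 2071 in CCR2-/- without overlap (log2 change -0.38, SE 0.07, adjusted p = 0.0151, and 0.0552 without WT A0309), Irf7 fell by 1.96 (adjusted p = 0.0268) and Ifi27l2a by 0.62 (adjusted p = 0.0245). The Irf7 call was lost in 9 of 17 fits (up to 0.144) and that of Ifi27l2a in 5 (up to 0.116), both highest without CCR2-/- A0308, both were lost with doublet calls kept (0.26 and 0.119), and Ifitm3 was also lost without CCR2-/- A0307. In cluster 18 Ifitm3 had 925 to 2017 CPM in WT and 229.9 to 764 in CCR2-/- without overlap (-1.37, SE 0.19, adjusted p = 0.00139), and Isg15 had 34.7 to 426 and 1.08 to 149 (-3.29, SE 0.59, adjusted p = 0.0126). These were 2 genes, against 0.245% of all genes, and the class median of -3.02 was the lowest of the 21.

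In cluster 6, 3 genes were lower in CCR2-/-, against 0.198% of all genes: Ifi44 (log2 change -2.51, SE 0.38, adjusted p = 0.00351), Ifi27l2a (-1.67, SE 0.26, adjusted p = 0.00414) and Bst2 (-0.53, SE 0.09, adjusted p = 0.0126, 0.0597 without CCR2-/- A0307 and 0.0989 with doublet calls kept). In general capillary endothelial cell-like cells Xaf1 (-0.92, SE 0.14, adjusted p = 0.00478) and Ifitm3 (-0.35, SE 0.06, adjusted p = 0.00884, and 0.0772 with doublet calls kept) were lower, against 0.15% of all genes. In lymphatic endothelial cell-like cells Ifitm3 (-0.73, SE 0.14, adjusted p = 0.0224) and Ifi27l2a (-1.08, SE 0.22, adjusted p = 0.041) were lower, against 0.114% of all genes. Both lymphatic calls were lost in 3 other settings, RLE size factors among them (up to 0.112 and 0.191). With 1 tag left out, Ifitm3 was lost there without WT A0304 or CCR2-/- A0305 or A0306 (up to 0.0663) and Ifi27l2a in 8 of 17 fits (up to 0.0964, without WT A0301). In cluster 12 Ifi27l2a had 222 to 3149 CPM in WT and 212 to 1455 in CCR2-/- (-1.29, SE 0.20, adjusted p = 0.00633; 0.0526% of all genes lower).

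Of the 34 genes 7 passed in no comparison and no class: Stat2 and Irf9, parts of the complex that binds the ISRE, Usp18, Herc6, the ligase that attaches ISG15 in mice, the mitochondrial nucleotide kinase Cmpk2, the ADP-ribosyltransferase Parp14, and Ifi35. Their log2 changes between genotypes still lay mostly below zero. Parp14 was below zero in 21 of 21 classes (median -0.77), Cmpk2 in 19 of 21 (-0.87), Herc6, Ifi35 and Irf9 in 17 of 21 each (-0.56, -0.60 and -0.51), Usp18 in 16 of 20 (-0.87) and Stat2 in 16 of 21 (-0.37). Reads of Herc6 are uncertain, with 23.8% of its 50-base words in other transcripts.

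Other genes of the pathway came from lists of which none holds a member. Of 97 other interferon-stimulated genes tested in activated fibroblast-like cells 16 were lower in CCR2-/-, against 1.29% of all genes, with a median log2 change of -0.77. Ly6e fell by 1.13 (SE 0.16, adjusted p = 0.00077), and Psmb9, a subunit of the immunoproteasome on the same list, had a log2 change of -1.84 (SE 0.25, adjusted p = 0.00051). Of 24 genes biased to interferon gamma 9 were lower and 1 higher (median -1.26). Of 22 genes of nucleic acid sensing 1 was lower, and of 14 negative regulators 1 was lower and 1 higher. NF-kappaB targets, of which 3 of 23 were higher and 1 lower, had a median of 0.01.

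Over the 21 classes the other interferon-stimulated genes had 54 of 1941 pairs lower and 1 higher between genotypes, with 78.6% below zero. The interferon gamma list had 15 of 479 lower and 3 higher, with 76.4% below zero. Of all pairs 0.6% were lower between genotypes. For NF-kappaB targets 49.5% of pairs lay below zero. From the second to the third WT block 0.22% of all pairs were lower. In that step the other interferon-stimulated genes had 19 of 1941 pairs lower and 3 higher and the interferon gamma list 15 of 479 lower. In alveolar type 1 cell-like cells the latter included the MHC class II genes Cd74 (log2 change -2.68, SE 0.28), H2-Aa (-3.38) and H2-Ab1 (-3.76). In that step immediate early genes were lower in 26 pairs and higher in 2. Of these genes 12 of 18 were lower in activated fibroblast-like cells (1.66% of all genes). The counts were 7 of 17 in alveolar type 1 (0.296% of all genes) and 0 of 18 in alveolar type 2 cell-like cells (0.333%). In CCR2-/- from the first to the second block 5 of 18 immediate early genes were lower in alveolar type 2 cell-like cells (0.18% of all genes). Their part in the results was not tested.

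The make-up of the lung moved with the blocks and genotypes as well. Plasmacytoid dendritic cell-like cells, known as strong makers of type I interferon, were 0.673%, 0.349% and 0.14% of WT cells and 0.559%, 0.332% and 0.17% of CCR2-/- cells in the 3 blocks. Scar-type macrophage-like cells were 7.27%, 6.53% and 0.895% in WT and 1.57%, 0.842% and 0.087% in CCR2-/-. Cluster 8 was 6.92%, 8.62% and 6.94% in WT and 0.896%, 1.70% and 1.41% in CCR2-/-. Neutrophil-like cells, the class with the highest level of 13 of the response genes, were 3.51%, 4.80% and 9.23% in WT and 6.08%, 10.8% and 5.93% in CCR2-/-. The part of these shares in the results was not tested.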

How the data were processed

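The deposited tables hold whole-number counts of reads per gene and cell, made by the authors without normalization, 1 table per library. The build GRCm38 and the tools R 3.6.3, Bowtie2 2.4.2 and cutadapt 2.10 are named, per the submitters' processing notes; the counting rule, the annotation and the handling of molecular identifiers are not given in the sources used here, so entries were taken as reads. Genes that share sequence with near copies may have split or lost reads. Column names place each cell under a tag or as a doublet (680 in WT, 531 in CCR2-/-, not used), and 2 columns with neither name were not used.

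Cells were kept from 200 genes up and at no more than 25% mitochondrial reads, and Scrublet calls (expected rate 0.06; 370 in WT, 336 in CCR2-/-) were removed, leaving 16857 and 14882 cells. With the stricter filter Scrublet called no cell in CCR2-/- and did not work there. Counts were scaled to 10000 per cell and clustered in Scanpy 1.11.5 (2000 variable genes, 40 components, 20 neighbours, leidenalg 0.10.2 at resolution 1.5), leaving out 135 genes, the interferon genes and Ccr2. A name needed 3 markers among the top 100 genes with 1.5 times as many as the next type. Reads were summed per class and tag (at least 10 cells, at least 2 tags per library and block) and fitted in edgeR 4.0.16 (quasi-likelihood, filterByExpr, TMM, 6 means and 7 contrasts), with Benjamini-Hochberg adjustment over all genes of a class at 0.05. The fit was tested on simulated data. CPM values use the total reads of each class and tag, and TMM factors entered only the fit. Alternatives were RLE factors, DESeq2 1.42.0, no filter, each library alone, each tag left out, clustering with the interferon genes (Ccr2 still left out), resolution 0.8, a stricter cell filter and doublet calls kept.

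The members and lists were chosen with earlier results of these data known. Named in each class are called members, up to 10 a direction by size, and Isg15, Ifit3, Irf7, Usp18, Rsad2, Ifi27l2a, Ifitm3 and Bst2 where described. Intervals and floors treat reads as independent counts, although a cell can hold many reads of 1 molecule. Computations also used R 4.3.3, limma 3.58.1, matplotlib 3.10.9, pandas 2.3.3, scikit-learn 1.9.0, scipy 1.17.1, numpy 2.4.6 and Python 3.11.15.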

Additional observations from a re-analysis of the deposited data

How the results depend on the processing

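No paired analysis was possible because the labels give each genotype 1 sample and tie no tag number to an animal or a day. Of the 98 calls 44 passed in all 17 fits with 1 tag left out and 38 of these also under every other setting that could be run (27 of 67 between genotypes, 7 of 14 and 4 of 15 in the WT and CCR2-/- steps with most calls, 0 of 2 in the last CCR2-/- step); none turned its direction. Counts of lower calls, in the order of the WT steps from the first to the second and from there to the third block, the same CCR2-/- steps, the genotypes and the differences of the first and second step, became 1, 44, 46, 14, 140, 9 and 1 without the filter on low counts (higher: 2, 0, 2, 6, 0, 1 and 11) and 3, 55, 64, 31, 155, 18 and 9 by DESeq2 (higher: 1, 0, 0, 11, 0, 1 and 16). Over all genes, in the same order, 0.0442%, 0.243%, 0.125%, 0.115%, 0.573%, 0.0412% and 0.0477% of pairs were lower without the filter and 0.223%, 0.832%, 0.69%, 1.24%, 1.8%, 0.273% and 0.606% by DESeq2. With each library fitted alone 23 were lower in the second WT step (480 of 219707 pairs of all genes). In the last CCR2-/- step 0 were then higher (23 of 229965 pairs of all genes). With the interferon genes in the clustering 2 were lower in the last CCR2-/- step (128 of 288155 pairs of all genes). In that setting 1 difference of the second step was higher (35 of 288155 pairs of all genes). At resolution 0.8 the first CCR2-/- step had 23 lower (317 of 260218 pairs of all genes). The last CCR2-/- step then had 2 lower and 5 higher (525 and 136 of 260218). With the stricter cell filter the first CCR2-/- step had 8 lower (221 of 253031). With doublet calls kept the last CCR2-/- step had 2 lower and 0 higher (109 and 35 of 273482). With 1 tag left out the lower calls ranged from 45 (without CCR2-/- A0307) to 79 (without A0308) between genotypes, 8 (without WT A0306) to 21 (without CCR2-/- A0307 or A0308) in the second WT step, 7 (without CCR2-/- A0305) to 19 in the first CCR2-/- step, 1 to 10 (without A0308) in the last, with 0 to 3 higher, and 0 to 2 in each difference of steps, with 0 to 3 higher in the second. Both the lowest and the highest count between genotypes came from the fits without CCR2-/- A0307 or A0308, as did the highest in the second WT and last CCR2-/- steps. These fits leave 1 tag in its block, below the 2 otherwise required and assumed to vary like the other groups. They test 309467 and 309299 pairs of all genes, against 271467, so their counts cannot be compared with those of other fits. No all-gene count of calls from them is set beside the response gene counts. Calls over all genes also moved with the tag left out. Without WT A0306, 330 of 267274 pairs of all genes were lower in the second WT step, against 598 of 271467 with all tags. Without CCR2-/- A0305, 115 of 269098 were lower in the first CCR2-/- step, against 246. The ranges are therefore no measure of the response genes alone. RLE factors moved the response genes of a class by -0.267 to 0.307 on the log2 scale and moved no count of calls by over 1.5 times. The cause was not tested for any of these. At 10000 reads a cell the share with Rsad2 in WT neutrophil-like cells was 20.1% and with Ifi27l2a in alveolar type 2 cell-like cells 40.5%. A CCR2-/- tag held 13 to 41 cells of cluster 8 and 14 to 29 of the lymphatic endothelial cell-like class, which limits depth there.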

Other observations

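Scar-type macrophage-like cells, the Mmp12 and Gpnmb macrophages of injured lung, had too few CCR2-/- cells for a test, and their levels are given as values. Ifit2 had its highest WT level in this class (84.6 ± 60.4 CPM, SD, n = 9), and in CCR2-/- it had 6.17 ± 14.8 CPM over the 6 tags with enough cells, with a median of 0. Irf7 had 273 ± 113 CPM in WT and 76.1 ± 97.7 in CCR2-/-, where the tags ran from 0 to 247. Isg15 had 125 to 397 CPM over the WT tags and 0 to 179 over the CCR2-/- tags. Rsad2 had 54.1 to 878 CPM in WT and 0 to 157 in CCR2-/-. The ranges of Irf7, Isg15, Rsad2 and Ifit2 overlapped between the genotypes in this class.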
